A study of Triticum aestivum with 4 samples.

Results

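The gene rbcl (symbol LOC100049018) codes for the large subunit of Rubisco, and it is 1 of 771 genes with a symbol on the Affymetrix wheat array. Of the 61115 probe sets that are no controls, 28 are annotated to it. These 28 were taken through the platform annotation, which dates from years before the current gene tables, and each was followed on its own across the 4 groups. Of the 28, 11 gave an intensity above the floor of 12.3 on at least 1 array and are called measured below. Of all 61115 probe sets, 54.9% were measured in this sense. The other 17 stayed under it on all 4 arrays. The floor is the median of all values that are no controls, pooled over the arrays.

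Rubisco fixes carbon dioxide in the Calvin cycle and is the most abundant protein of green leaves. In plants its large subunit, which carries the active site, is encoded in the plastid genome, whereas the small subunit is encoded in the nucleus. Plastid messenger RNAs carry no stable poly(A) tail, and copies of plastid genes are also found in nuclear chromosomes of many plants. The gene table used for names, built on IWGSC CS RefSeq v2.1, lists LOC100049018 with the synonym rbcl under a nuclear chromosome and holds no plastid sequence. Which of these templates a given probe set binds was not tested, and the probe sequences were not used here.

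RNA came from flag leaves of Yangmai 16, a winter cultivar of bread wheat (*Triticum aestivum*), with 1 array for each of 4 groups. All plants were offspring of a parental generation that was either left unprimed (N) or heat-primed (P). Priming before anthesis was done at the 7-leaf and the 9-leaf stage, each time for 2 days, with days at 32 °C and nights at 28 °C. It was repeated after anthesis, beginning on day 10, with 7 days at 34 °C and nights at 30 °C. The offspring were treated for 6 days, also beginning on day 10 after anthesis, either with days at 26 °C and nights at 22 °C (C) or with days at 34 °C and nights at 30 °C (H). This gives NC and NH from unprimed parents and PC and PH from primed parents. The labels do not say how many plants went into an array. No group has a replicate, so a single comparison has no error and no test, and the number of arrays limits the precision.

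The leaf label was set against marker genes. All 6 leaf photosynthesis markers were above the floor on all 4 arrays, with summed intensities of 30667 on NC and 10898 on NH, and 32307 on PC and 18855 on PH. Of 7 grain markers, 3 were above it on all 4 arrays, and their sum over all 7 was 426 on NC and 1355 on NH, and 465 on PC and 671 on PH. Of 2 anther markers, raftin1a was below the floor on every array and raftin1b lay between 13.4 and 16.8. Spiked poly-A controls, 36 probe sets, had a median ratio of 1.87 for NH over NC and of 0.812 for PH over PC. The ratio of 3' to 5' signal of the ubiquitin control was 0.645 on NC and 0.929 on NH, and 0.750 on PC and 0.992 on PH. The grain sum rested mainly on avnla, which read 11.2 on NC and 659 on NH, and 9.50 on PC and 72.9 on PH, and on avnlb. LMW-GS and WMAI-1 were lower on the heated array in both seed backgrounds. The remaining grain markers were higher on it in both, at lower intensities than avnlb. Serpin-Z2A read 5.57 on NC and 49.9 on NH, and 4.09 on PC and 15.1 on PH. THI1.1 read 7.53 on NC and 22.5 on NH, and 6.02 on PC and 18.8 on PH. Gli-8 read 15.6 on NC and 16.5 on NH, and 9.15 on PC and 14.4 on PH. The summed grain signal and the ubiquitin ratio were higher with heat in both backgrounds, while some rbcl probe sets were lower, and their part in those results was not tested. In whole leaves, fewer cells with a transcript and less of it per cell cannot be told apart.

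The probe sets of this 1 gene spanned almost the whole intensity scale. On every array 2 of them held the first and second place of all 61115 probe sets, 9 lay between 7.49 and 142.9, and 17 lay between 1.86 and 9.90. The brightest, TaAffx.128414.1.A1_x_at, read 16201 on NC and 15575 on NH, and 16875 on PC and 16320 on PH. The second, Ta.24976.1.S1_x_at, read 15434 on NC and 15034 on NH, and 15936 on PC and 15239 on PH. In both the PC array was highest and the NH array lowest, and the middle places, taken by PH and NC, were in the opposite order. With no replicate, none of these neighbouring levels can be called different.

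**Figure D1:**
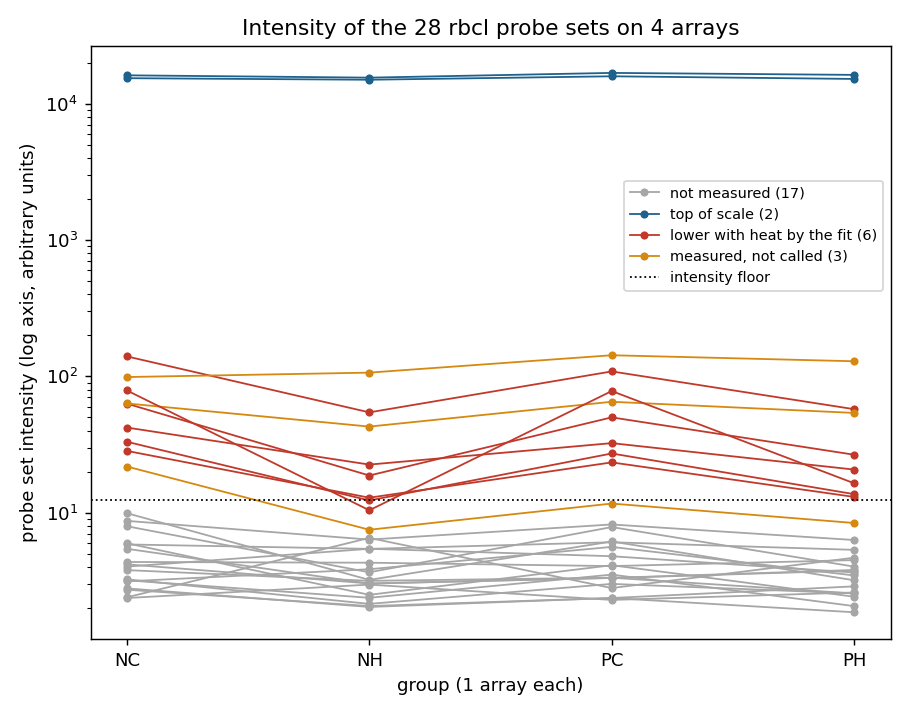
Intensity of the 28 rbcl probe sets (log axis, arbitrary units) on the 1 array of each group, with the floor of 12.3 as a dotted line. The 2 probe sets at the top run almost level between 15034 and 16875, the 6 called lower with heat dip on NH and on PH, and the 17 that were not measured stay at or below 9.90.

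The pair at the top stood clear of the rest of each array. The third highest probe set read 12474 on NC and 12616 on NH, and 12720 on PC and 12125 on PH, so the brightest rbcl probe set was 1.30, 1.24, 1.33 and 1.35 times as bright as it. The twentieth read between 8492 and 8674. Among the 20 brightest probe sets of an array, 5 or 6 had a gene symbol, and exactly 2 of these were rbcl on each array. The ratio of the brightest to the second was 1.05 on NC and 1.04 on NH, and 1.06 on PC and 1.07 on PH. How far signals of this size still follow the amount of RNA was not tested.

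With heat, the brightest pair differed little. TaAffx.128414.1.A1_x_at had a log2 difference of -0.06 for NH minus NC and of -0.05 for PH minus PC. For Ta.24976.1.S1_x_at the differences were -0.04 and -0.06. The 100 probe sets with the highest mean signal had medians of -0.05 and -0.07. Among them 15.0% were 2-fold or more lower in NH than in NC and 7.0% higher. For PH against PC the shares were 0.0% and 6.0%. A small difference was thus not particular to the rbcl pair. A limma model with additive terms for temperature and seed background, fitted to all 4 arrays, gives a test of heat. Its error combines the disagreement between the backgrounds, with 1 residual degree of freedom, with a variance pooled over all probe sets, which counts as 2.86 prior degrees of freedom. Its heat coefficient was -0.05 for each of the pair, with 95% intervals of -0.43 to 0.33 in both (adjusted p = 0.811 and 0.816). These intervals, with a standard error of 0.14 for each, rest mostly on the pooled variance and not on replicates, and they do not show that the level stayed the same.

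Most of the 9 dimmer probe sets were lower with heat. In unprimed progeny 5 of the 11 measured rbcl probe sets were 2-fold or more lower in NH than in NC and 0 higher, whereas 10.5% of the 32695 probe sets measured in that pair were lower and 11.1% higher. Their median log2 difference was -0.90 against 0.02 over all tested. TaAffx.128414.42.S1_at is 1 of these 11 and was above the floor on NC alone, so its difference of -0.83 could only be negative. In primed progeny 1 of the 10 rbcl probe sets measured in that pair was 2-fold or more lower in PH than in PC and 0 higher, against 9.99% lower and 9.69% higher in the background. This count is no more than the background share, while the median was -0.74 against 0.04. In both comparisons 1 of 10 passed 2-fold downward, against 8.17% of 31588. The heat coefficient was below 0 with an adjusted p under 0.05 at 6 of the 11, against 13.9% of 33561 probe sets, and above 0 at 0 of the 11, against 15.8%. The 11 share a gene and arrays and are not replicates of each other.

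The widest change was that of TaAffx.128414.72.S1_at. It read 78.8 on NC and 10.4 on NH, and 78.0 on PC and 16.4 on PH. Both unheated arrays stood far above both heated ones and nearly level with each other. With NH below the floor, it fell at least 6.42-fold in unprimed progeny, and it fell 4.75-fold in primed progeny. Its heat coefficient was -2.47 (SE 0.17, 95% interval -2.96 to -1.97, adjusted p = 0.00615), in which the NH value was raised to the floor. This was the 1 rbcl probe set past 2-fold in both seed backgrounds.

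A further 4 probe sets passed 2-fold in unprimed progeny and came close to it in primed progeny. TaAffx.128414.130.S1_at read 63.1 on NC and 18.7 on NH, and 50.001 on PC and 26.6 on PH. TaAffx.128414.181.S1_at, the brightest of those that fell, read 140.1 on NC and 54.4 on NH, and 108.7 on PC and 57.4 on PH. In both, the order was NC, PC, PH, NH from high to low. These probe sets are described because they fell with heat, and how many of all probe sets show this order was not counted. TaAffx.128414.146.S1_at read 33.1 on NC, 12.3 on NH, 27.2 on PC, 13.7 on PH, and TaAffx.128414.16.S1_at read 28.4, 12.9, 23.4 and 13.0 in the same order. The order was the same in these, although their heated values lay at or just above the floor. The NH value of TaAffx.128414.146.S1_at was just below it, so that its fall is a lower bound.

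Folds and fitted values for these 4 were close to each other. TaAffx.128414.130.S1_at fell 3.37-fold in unprimed progeny and had a log2 difference of -0.91 in primed progeny, with a heat coefficient of -1.33 (SE 0.25, adjusted p = 0.0310). TaAffx.128414.146.S1_at fell at least 2.70-fold, with -0.99 in primed progeny and a coefficient of -1.21 (SE 0.18, adjusted p = 0.0181). For TaAffx.128414.181.S1_at the fall was 2.57-fold, with -0.92 in primed progeny and a coefficient of -1.14 (SE 0.18, adjusted p = 0.0205). For TaAffx.128414.16.S1_at it was 2.21-fold, with -0.84 and a coefficient of -0.99 (SE 0.16, adjusted p = 0.0211). The 95% intervals of these 4 coefficients ran together from -2.05 to -0.55, and those of the brightest pair began at -0.43. These 4 were picked because they fell, so the gap is no test of a difference between probe sets.

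TaAffx.128414.126.S1_at was the sixth probe set called by the fit, without passing 2-fold in either background. It read 42.1 on NC and 22.5 on NH, and 32.4 on PC and 20.7 on PH. The log2 differences were -0.90 and -0.64 and the heat coefficient -0.77 (SE 0.15, adjusted p = 0.0324), with an interval of -1.20 to -0.35 that overlaps that of the brightest pair. With the floor at the 25th percentile its adjusted p was 0.0523 and that of TaAffx.128414.130.S1_at 0.0574.

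The remaining 3 measured probe sets were not called. TaAffx.128414.196.S1_at read 63.3 on NC and 42.8 on NH, and 65.1 on PC and 53.9 on PH, with differences of -0.56 and -0.27 and a coefficient of -0.42 (adjusted p = 0.125). Its heated values lay below the unheated ones in each background. TaAffx.128414.42.S1_at read 21.8 on NC and was below the floor elsewhere, at 7.49 on NH, 11.7 on PC and 8.39 on PH. From that height a fall of 2-fold could not be seen above the floor: NH was at least 1.78-fold lower, PH against PC has no fold, and the fit used 3 values raised to the floor (adjusted p = 0.291).

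TaAffx.128896.17.S1_s_at was the probe set in this dim range with no fall in unprimed progeny. It read 98.9 on NC and 106.5 on NH, and 142.9 on PC and 129.1 on PH. Here the P arrays were higher than the N arrays, and the difference with heat was 0.11 in unprimed and -0.15 in primed progeny. Its heat coefficient was -0.02 (95% interval -0.44 to 0.40, adjusted p = 0.940).

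**Figure D2:**
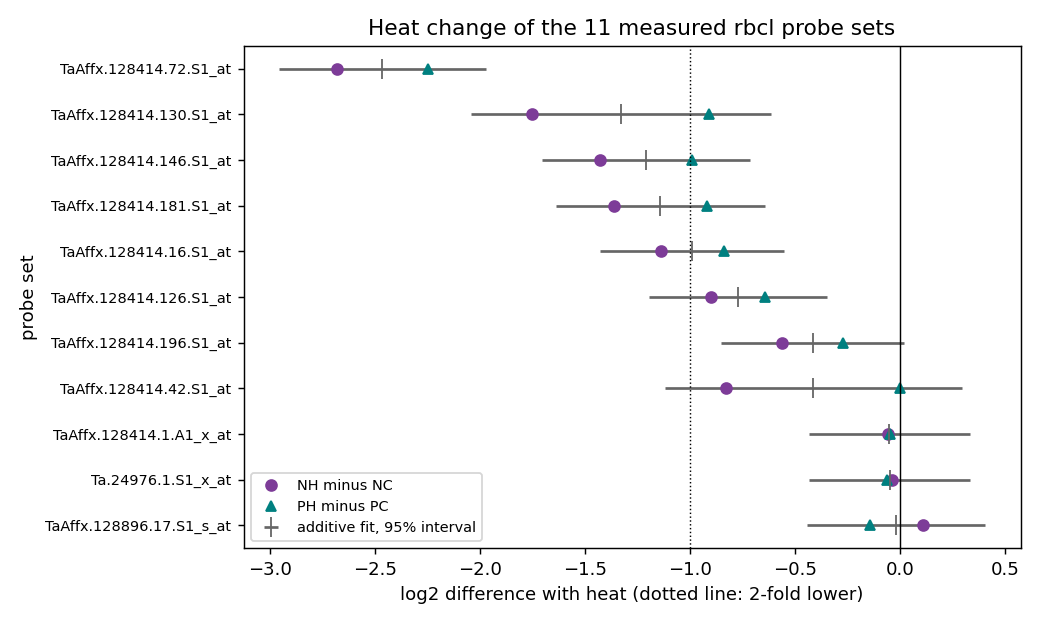
Log2 difference with heat of each of the 11 measured rbcl probe sets (horizontal axis), for NH minus NC (circles) and PH minus PC (triangles), with the heat coefficient of the additive fit and its 95% interval (bars). TaAffx.128414.72.S1_at lies below -2 in both backgrounds and the brightest pair lies at -0.06 to -0.04; 5 circles and 1 triangle are left of the 2-fold line, and the triangle of TaAffx.128414.42.S1_at at 0 stands for values that were both below the floor.

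At the same level of signal, falls of this size were a minority on the array. The 9 dimmer probe sets had geometric means of 14.2 to 118, and of the 20197 probe sets in that range 9.76% were 2-fold or more lower in NH than in NC and 9.35% in PH than in PC. The medians of that range were 0.00 and 0.04.

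Parental priming had no called effect on any rbcl probe set. Without heat, 0 of the 11 differed by 2-fold between PC and NC in either direction, against 0.42% lower and 0.342% higher among 31915, and the log2 differences ran from -0.83 to 0.53. The lowest was that of TaAffx.128414.42.S1_at, at which PC was below the floor, and the highest that of TaAffx.128896.17.S1_s_at, whose PC value was 1.45 times the NC value. Under heat, 0 of the 10 measured in that pair differed by 2-fold between PH and NH, against 1.5% lower and 2.27% higher among 31462. The differences ran from -0.12 to 0.51 there, the highest being that of TaAffx.128414.130.S1_at. The priming coefficient of limma had an adjusted p under 0.05 at 0 of the 11 rbcl probe sets and an unadjusted p under 0.05 at 0 of them, while 1423 of 33561 probe sets reached the latter and 0 the former. The highest coefficient was 0.40 for TaAffx.128896.17.S1_s_at (95% interval -0.02 to 0.83, adjusted p = 0.879).

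Between the seed backgrounds the heat change of an rbcl probe set differed by less than 2-fold in all 11 cases (2.27% of 33561 probe sets were 2-fold or more lower in P and 2.28% higher). The difference, PH minus PC less NH minus NC, ran from -0.25 to 0.84 with a median of 0.30, against 0.00 over all tested, and has no error with 1 array a group. Among the 6 probe sets called for heat it was between 0.26 and 0.84, so the difference with heat was smaller in size in primed than in unprimed progeny for each of them. Each of the other photosynthesis genes set beside rbcl below also fell less in primed progeny, so this direction was not particular to rbcl. Its share among all probe sets lower with heat was not counted. The difference was 0.84 for TaAffx.128414.130.S1_at and 0.26 for TaAffx.128414.126.S1_at. For TaAffx.128414.72.S1_at it was 0.43 with the NH value raised to the floor, and 0.67 with the floor at the 25th percentile. For the brightest pair it was 0.01 and -0.03. For TaAffx.128414.42.S1_at it was 0.83, with the NH, PC and PH values all raised to the floor, and so could not be negative. All of these differences use the same NH array, where the spiked poly-A controls had their highest signal relative to NC and PH; their part in the result was not tested.

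The probe sets also differ in features that played no part in choosing them. By type, 23 of the 28 carry the plain suffix _at, 4 the suffix _x_at and 1 the suffix _s_at; the last 2 mark probes that can match several transcripts. Both probe sets at the top of the scale are of the _x_at type, while the other 2 of that type were not measured. All 6 called for heat are of the plain type, as are 8 of the 11 measured. By the database prefix of the source sequence, 13 came from the BE series of expressed sequence tags, and 2 of these were measured. Of the 13 from the CA series, 8 were measured, among them 5 of the 6 called for heat. The share measured over all probe sets was 54.9%. The brightest came from the 1 directly submitted sequence, and the 1 from the BJ series was not measured. By the cluster number in the ID, 24 belong to TaAffx.128414 and 1 each to Ta.14567, Ta.24976, Ta.3807 and TaAffx.128896. All 6 called for heat are among the 24, as are 9 of the 11 measured.

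The cluster TaAffx.128414 holds another 35 probe sets, none with a gene symbol, of which 16 were measured. Of these 16, 6 were 2-fold or more lower in NH than in NC and 1 higher, against 10.5% and 11.1% of all probe sets tested. Between PH and PC, 3 were lower and 1 higher, against 9.99% and 9.69%. The medians of the 16 were -0.76 and -0.28. The fit called 7 lower and 1 higher with heat, against 13.9% and 15.8%. Unlike the annotated members, which left the range from 142.9 to 15034 empty, 5 of them exceeded 1000 on some array. TaAffx.128414.215.S1_s_at, picked here after its values were seen, read 2294 on NC and 554 on NH, and 3660 on PC and 1177 on PH and had a heat coefficient of -1.84 (adjusted p = 0.00856). TaAffx.128414.24.A1_s_at, likewise picked, read 24.8 on NC and 115.8 on NH, and 17.6 on PC and 79.7 on PH and rose by 2.20 (adjusted p = 0.00510). The calls among these 16 were thus mostly falls, with 1 rise, and whether these probe sets belong to rbcl was not tested. In the cluster TaAffx.128896 another 10 without a symbol were measured. Of these 10, 1 was 2-fold or more lower in NH than in NC and 0 in PH than in PC, against the same 10.5% and 9.99%. The fit called 2 of them lower and 0 higher. In Ta.14567 another 2 were measured, and 0 passed 2-fold in either heat comparison.

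**Figure D3:**
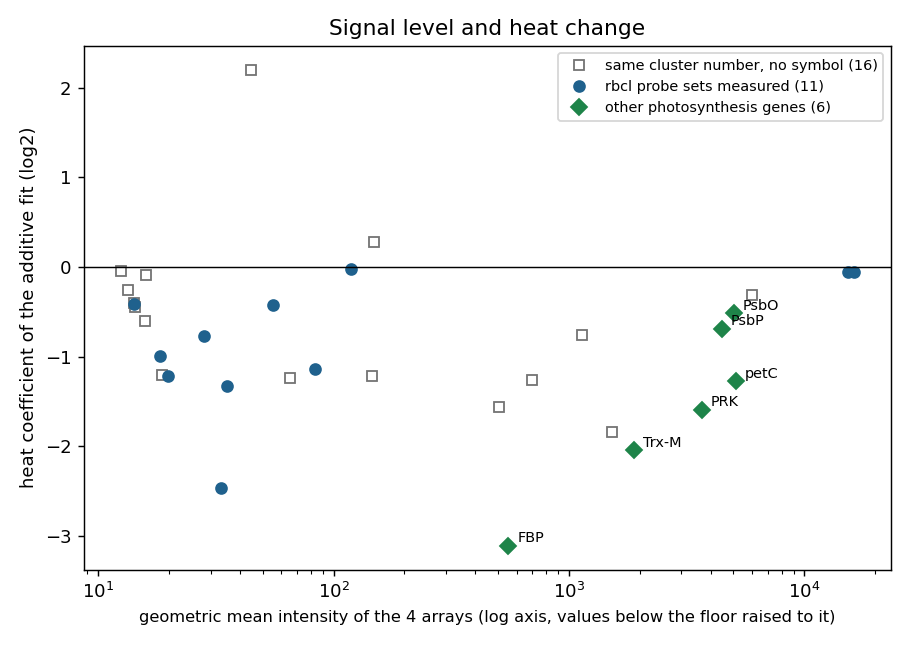
Heat coefficient of the additive fit (log2, vertical axis) against the geometric mean intensity of the 4 arrays (log axis) for the 11 measured rbcl probe sets (circles), the 16 measured probe sets without a symbol in the cluster TaAffx.128414 (squares) and 6 other photosynthesis genes (diamonds). The brightest rbcl pair lies near 0 at the right edge, the rbcl probe sets called for heat lie lower at the left, and the diamonds lie between -3.11 and -0.52 at intermediate to high signal.

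Other photosynthesis genes give a setting for these changes. None of the gene symbols and synonyms searched matched the Rubisco small subunit or Rubisco activase, the chaperone that keeps Rubisco active, so these were not analysed here. Longer descriptive names were not searched, and 59842 probe sets have no symbol, so the array may still carry these genes. The 6 photosynthesis genes that matched by name are the same 6 that served as leaf markers above, so both accounts rest on the same values. All 6 were measured. Of these, 4 were 2-fold or more lower in NH than in NC, against 10.5% of all probe sets tested. In PH against PC 2 were lower, against 9.99%, and 0 were higher in either comparison. The fit called the same number, 4, lower with heat, against 13.9%, and 0 higher. PRK, phosphoribulokinase, which makes the substrate of Rubisco, read 5887 on NC and 1275 on NH, and 6877 on PC and 3493 on PH and had a heat coefficient of -1.59 (SE 0.34, adjusted p = 0.0397). PsbO, a photosystem II protein that stabilizes the site of water oxidation, read 5853, 3674, 6165 and 4793 in the same order and had -0.52 (SE 0.16, adjusted p = 0.0827). The brightest rbcl pair had a coefficient of -0.05. Levels of different probe sets are not comparable as amounts of RNA, so only the differences are set side by side here. At PH minus NH, all 6 of these genes were above 0 and 2 were 2-fold or more higher, against 2.27% of 31462 probe sets. The share of all probe sets above 0 was not counted, and all 6 differences use the same NH array.

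The genes whose pattern over the 4 arrays was nearest to the brightest rbcl probe set were those that changed little. Likeness was the Euclidean distance between log2 values centred on each probe set's own mean, over probe sets of the 540 genes with all 4 values above the floor. The second rbcl probe set at the top lay at 0.04 from the brightest, and the nearest other genes were LOC542966 (0.04), LOC543490 (0.05), LOC542856 (0.06), TEF1 (0.07) and LOC100049051 (0.07). The same distance between the brightest and TaAffx.128414.130.S1_at, another probe set of the same gene, was 1.35. TaAffx.128414.130.S1_at, which had the lowest heat change among the rbcl probe sets above the floor on all 4 arrays, was nearest to LOC543499 (0.12), LOC100125701 (0.17), LOC542831 (0.22), LOC543152 (0.22) and LOC100037539 (0.28). LOC543499 read 1377 on NC and 366 on NH, and 1058 on PC and 546 on PH, and among the rbcl probe sets TaAffx.128414.181.S1_at was nearest, at 0.36. A distance over 4 arrays without replicates describes these arrays.

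The 17 probe sets that were not measured had intensities from 1.86 to 9.90, with medians of 4.02 on NC and 3.16 on NH, and 3.51 on PC and 3.46 on PH. All lay below the floor on each array, so at this floor their values have no order and no change was read from them. They include 15 of the 24 of the cluster TaAffx.128414 and 11 of the 13 from the BE series.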

How the data were processed

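The authors deposited 1 intensity per probe set and array, on a linear scale; MAS5 is the tool in the submitters' processing notes. Its version, any scaling and detection calls were not given in the sources used here. Per the labels' protocols, 6 µg of total RNA per sample was labelled with biotin, while the label field names Cy3. The array medians, 12.1 to 12.7, lie close together, and values were kept as deposited. Of 61290 probe sets, 175 controls were left out. Values below the floor were raised to it before log2; such folds are lower bounds. A probe set counted at a log2 difference of 1 or more in size. Of the others, 1273 probe sets have 1 symbol, 0 several and 59842 none; synonyms came from the gene table, whose coordinates were not used.

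The fit was limma 3.58.1 in R 4.3.3 (lmFit, eBayes) over 33561 probe sets, with Benjamini-Hochberg adjusted p-values over all of them, tested on simulated data. Tables and figures used Python 3.11.15, numpy 2.4.6, pandas 2.3.3 and matplotlib 3.10.9. The probe sets, gene lists and the fit were chosen with earlier results of these data known. Every rbcl probe set is named; the pathway genes are counted and at most 6 named; the 5 nearest genes are named for the brightest rbcl probe set and for that with the lowest heat change. Probe sets picked otherwise are marked so. Alternatives were quantile normalization, median scaling, a floor of 4.20 (25th percentile) or 53.6 (75th), a pseudocount of the floor's size, a 3-fold threshold, plain probe sets alone and a prior trend on mean signal.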

Additional observations from a re-analysis of the deposited data

Results flagged for a closer look

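At TaAffx.128896.17.S1_s_at the 1 heated array stood above its control in unprimed progeny and below it in primed progeny, with log2 differences of 0.11 (98.9 on NC, 106.5 on NH) and -0.15 (142.9 on PC, 129.1 on PH). The difference between the backgrounds was not tested, since each has 1 array per temperature.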

How the results depend on the processing

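No paired analysis was possible because each group has 1 array and the labels give no replicate numbers; for the same reason no replicate could be left out. Of 98 recomputed counts of rbcl probe sets past a threshold, 92 stayed within 1.5 times the reported count. Most of the 92 were counts reported as 0 that stayed 0, so this total says little about the counts of falls. All probe sets counted as lower are of the plain type, so taking plain probe sets alone could not change those counts. The count 2-fold lower in NH than in NC was 5. It became 7 with the floor at the 25th percentile, 1 with the floor at the 75th, 3 with the pseudocount and 2 at 3-fold. At that higher floor the count lower in PH than in PC was 0 and the count lower by the heat coefficient 2, of 7 probe sets still measured. With the floor at the 25th percentile 1 probe set, TaAffx.128414.42.S1_at, had a heat change 2-fold or more higher in P than in N, against 0 reported. At that lower floor the count lower by the heat coefficient was 5. Both this count and the 7 include a probe set that lay under the reported floor on every array. Of 124 recomputed coefficients, 117 kept their side of the threshold and did not take the opposite sign. They include the heat and priming coefficients of the brightest pair with quantile normalization, which were 0. That outcome was fixed in advance, since the pair holds the first and second place on every array. The call was lost at 3 heat coefficients: at the 25th percentile those of TaAffx.128414.126.S1_at and TaAffx.128414.130.S1_at (adjusted p = 0.0523 and 0.0574), and at the 75th that of the latter (-0.12, adjusted p = 0.564). A change of sign occurred at 4 coefficients that were not called: with median scaling the heat coefficients of Ta.24976.1.S1_x_at (0.00017) and TaAffx.128896.17.S1_s_at (0.032), and at the higher floor the priming coefficients of TaAffx.128414.130.S1_at (-0.12) and TaAffx.128414.72.S1_at (-0.0073). The cause was not tested beyond these settings. Signal over background limits the 9 dim probe sets: a fall below the floor cannot be sized.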
